A study of Homo sapiens with 18 samples.

Results

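AP-1 is the transcription factor made by pairing of FOS family and JUN family proteins, and its mRNAs were followed here in MDA-MB-231 cells, a mesenchymal line derived from triple-negative breast cancer. The members were taken by symbol from the rows of the count files: FOS, FOSB, FOSL1 and FOSL2 of the FOS family and JUN, JUNB and JUND of the JUN family, 7 of the 60642 symbols listed. All 7 had enough reads to enter the test, alongside 15298 genes in all. The cells were transfected with a non-specific siRNA (siNS) or with siRNA pools against HP1γ (siHP1γ), a heterochromatin protein encoded by CBX3, or against PRMT5 (siPRMT5), an arginine methyltransferase, and then received the glucocorticoid dexamethasone (Dex, 100 nM) or its vehicle ethanol (Eth) for 8 h. The 6 conditions, siNS Eth, siNS Dex, siHP1γ Eth, siHP1γ Dex, siPRMT5 Eth and siPRMT5 Dex, had 3 replicate RNA-seq libraries each, so the 18 libraries all came from a single cell line and every control cell had also been transfected with an siRNA. The study examined HP1γ and PRMT5 as coregulators of the glucocorticoid receptor (GR), and GR is also a classical repressor of AP-1.

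AP-1 proteins carry a basic region that contacts DNA and a leucine zipper that holds the dimer together. JUN family proteins form homodimers or pair with FOS family proteins, whereas FOS family proteins need a JUN partner to bind DNA. The genes are switched on by MAP kinases and serum response factor after growth factors or stress, and AP-1 is known in breast cancer cells for driving proteases, cytokines and migration. Ligand-bound GR represses many AP-1 driven genes by contacting AP-1 at their promoters, a process called transrepression.

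The promoters of JUN, FOSL2 and JUND are shown because, among the members searched, these held an AP-1 type motif within the window around the start site. JUN, FOSL2 and JUND also carried the changes with the lowest adjusted p on Dex and on PRMT5 depletion with Eth and with Dex, respectively. The sequences are those of RefSeq on GRCh38.p14, from 250 bases before to 50 bases after the start, written 5′ to 3′ on the strand of the gene, with the motif in capitals. JUN lies on the minus strand, at chr1:58783998-58784297. FOSL2 lies on the plus strand, at chr2:28392608-28392907. JUND lies on the minus strand, at chr19:18281573-18281872.
JUN promoter: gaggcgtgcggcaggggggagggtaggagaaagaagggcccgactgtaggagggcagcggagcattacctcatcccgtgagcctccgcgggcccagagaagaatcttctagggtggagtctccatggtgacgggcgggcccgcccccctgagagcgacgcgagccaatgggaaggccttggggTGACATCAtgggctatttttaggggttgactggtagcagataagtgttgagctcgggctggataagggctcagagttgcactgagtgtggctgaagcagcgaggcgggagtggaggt
FOSL2 promoter: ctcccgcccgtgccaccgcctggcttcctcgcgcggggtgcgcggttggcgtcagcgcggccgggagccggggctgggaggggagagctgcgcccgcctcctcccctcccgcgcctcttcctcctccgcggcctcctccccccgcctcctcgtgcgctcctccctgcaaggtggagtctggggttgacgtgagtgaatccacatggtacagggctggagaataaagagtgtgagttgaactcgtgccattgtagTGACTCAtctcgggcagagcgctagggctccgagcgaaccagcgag
JUND promoter: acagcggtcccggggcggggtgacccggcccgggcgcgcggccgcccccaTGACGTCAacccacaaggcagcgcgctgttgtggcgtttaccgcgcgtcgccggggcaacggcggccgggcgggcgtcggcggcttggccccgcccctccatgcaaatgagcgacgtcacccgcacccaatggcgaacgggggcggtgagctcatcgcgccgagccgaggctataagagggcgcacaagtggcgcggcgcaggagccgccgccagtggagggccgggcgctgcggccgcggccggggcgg

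Promoters of the same length were held for 6 of the 7 members, the exception being FOSL1, and for 35116 starts in all, which were searched on both strands. TGACTCA, the motif first described for phorbol ester response, was present in 4.95% of all promoters and in 1 of the 6, FOSL2. There it began at base 5 counted from the RefSeq start. TGACNTCA, the longer form shared with CREB and ATF proteins, was present in 7.72% of all promoters and in 2 of the 6: it began 67 bases before the JUN start as TGACATCA and 200 bases before the JUND start as TGACGTCA. AGAACA, a single arm of the palindrome bound by GR, was present in 14.8% of all promoters and in 1 of the 6, FOSB. The full GR palindrome and the serum response element were in 0.00285% and 0.0342% of all promoters and in 0 of the 6. These matches describe letters in a 300 base window and say nothing on binding.

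In GENCODE 44 (hg38), JUN (chr1:58776845-58784048, minus), JUNB (chr19:12791486-12793315, plus) and JUND (chr19:18279694-18281622, minus) each have a canonical transcript of 1 exon. FOS (chr14:75278826-75282230, plus), FOSB (chr19:45467995-45475179, plus), FOSL1 (chr11:65892049-65900573, minus) and FOSL2 (chr2:28392448-28417317, plus) have 4 exons each in theirs. The FOSL2 gene begins further upstream here than at the RefSeq start, so the FOSL2 promoter window shown above lies wholly within it. FOSB overlaps ERCC1, JUNB overlaps HOOK2 and FOSL2 overlaps FOSL2-AS1 on the opposite strand. The strand setting of the counting is not given in the sources used here, so the reads of FOSB, JUNB and FOSL2 could not be told apart from those of these neighbours. FOSL2 also overlaps ENSG00000270640 on its own strand, where the strand setting does not separate the genes.

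The libraries held 8682992 to 12472381 assigned reads. CBX3, which encodes HP1γ, was at 9.89 ± 0.657 CPM in siHP1γ Eth against 256 ± 20.1 in siNS Eth (mean ± SD, n = 3), where CPM, counts per 1e+06, is relative to the TMM-adjusted library total. PRMT5 was at 7.41 ± 1.17 CPM in siPRMT5 Eth against 249 in siNS Eth (226 to 262), and it was also slightly lower after siHP1γ (log2 fold change -0.25, adjusted p = 0.0111 by edgeR with Eth). That call with Eth was lost in 1 of 18 fits without a library. With Dex, PRMT5 was at 188 ± 11.0 CPM in siHP1γ against 239 ± 11.4 in siNS, and was called lower in all 18 such fits. The mesenchymal markers VIM, CD44, AXL, CAV1 and ZEB1 were well above the detection limit in every library, whereas ESR1, PGR, CDH1, PTPRC and CD3E did not exceed 0.221 CPM in any. Of the other markers of luminal or foreign cells, VWF reached 0.713 CPM, and EPCAM (8.57 to 14.0 CPM), GATA3, ERBB3, CD68 and PECAM1 were read at low levels. PECAM1 was between 1.10 and 8.15 CPM and rose on Dex in siNS cells (log2 fold change 1.67), EPCAM rose on siHP1γ with Dex (0.47), and on siPRMT5 with Eth ERBB3 rose (1.01) and GATA3 fell (-0.70). PECAM1 and ERBB3 were picked out after their values were seen. Of the 5 mesenchymal markers, 4 fell on siHP1γ with Eth and 3 with Dex, led by CAV1 (-0.57 and -0.66), while on siPRMT5 AXL fell with both (-2.13) and CD44 with Eth (-0.18). Over all genes, siHP1γ changed 31.8% with Eth and 24% with Dex, and siPRMT5 changed 42.1% and 42.4%. The part of these markers in the AP-1 results was not tested. Replicates 1 and 3 of siHP1γ Dex differed most among replicate pairs. No pair of replicates held identical counts.

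FOSL1 was the most abundant AP-1 mRNA per length in all 6 conditions and FOSB the least. FOSL1 encodes FRA-1, the FOS family protein typical of invasive breast cancer cells, and in siNS Eth it stood at 310 ± 18.4 CPM per kb of canonical transcript (SD, n = 3). JUN, which encodes c-Jun, the strongest transcriptional activator of its family, followed at 118 ± 6.78 CPM per kb. JUND, a family member expressed steadily in many resting cells, stood at 28.5 ± 1.98, FOSL2, which encodes FRA-2, at 16.7 ± 0.488, and JUNB, which often opposes JUN, at 15.2 ± 1.11 CPM per kb. FOSL2 and JUNB, neighbours in this order, overlapped between their libraries. FOS, the founding immediate early member, was at 5.15 ± 0.581 CPM per kb and FOSB, its closest relative, at 1.08 ± 0.227. In the siPRMT5 conditions FOSL2 stood above JUND, at 30.7 against 21.1 CPM per kb with Eth and at 23.4 against 14.8 with Dex, without overlap between their libraries. The siNS Eth order was the same with the union of all exons as the length. Whether reads cover the whole transcript or its 3′ end is not given in the sources used here, and levels between genes depend on it. FOS family transcripts have 4 exons and JUN family transcripts 1, and the part of reads across exon junctions was not tested. The symbols counted also include 1 FOSL1 pseudogene, whose part in the FOSL1 level was not tested.

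FOSL1 made up 93.1% ± 0.659 of FOS family mRNA per length in siNS Eth (SD, n = 3) and 90.0% ± 0.986 in siNS Dex. In the siPRMT5 conditions its share was 82.2% ± 1.68 with Eth and 82.1% ± 0.961 with Dex, and that of FOSL2 was 14.8% ± 1.35 and 14.3% ± 0.530 against 5.02% ± 0.375 in siNS Eth. The shares of these 2 genes in the 6 siPRMT5 libraries did not overlap those in the other 12. Within the JUN family, JUN made up 73.0% ± 1.14 in siNS Eth and 53.6% ± 2.53 in siNS Dex, while JUND went from 17.6% ± 0.668 to 29.4% ± 2.28 and JUNB from 9.41% ± 0.472 to 17.0% ± 0.576. The CPM of JUND and JUNB did not pass the test on Dex, so these shares moved with the level of JUN. The sum over the 7 mRNAs was 495 ± 8.63 CPM per kb in siNS Eth and 325 ± 35.7 in siNS Dex. It was 350 ± 18.1 in siPRMT5 Eth and 228 ± 2.91 in siPRMT5 Dex, the lowest of the 6 conditions. In siHP1γ cells the sum was 500 ± 39.9 with Eth and 352 ± 7.82 with Dex.

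JUN fell on Dex in all 3 siRNA backgrounds. In siNS cells the 3 Eth libraries held 359, 399 and 395 CPM and the 3 Dex libraries 158, 158 and 153 CPM. The groups were far apart, and the Dex libraries lay within a few CPM of each other. The mean went from 384 ± 22.1 to 156 ± 2.46 CPM (SD, n = 3), a 2.46-fold decrease, with a log2 fold change of -1.30 (SE 0.0820, edgeR adjusted p = 5.96e-12). With 3 libraries against 3 an exact permutation test can give no two-sided p below 0.1, so only the fit across all genes can call a change. In bulk libraries a lower level in all cells and a loss from some of them cannot be told apart. JUN was the single AP-1 gene of 7 called for Dex in siNS cells, by a rule that asked for an adjusted p under 0.01 together with a minimum fold change of 1.5. This rule called 2.71% of all genes, 1.65% higher and 1.06% lower.

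In siHP1γ cells JUN held 380, 339 and 354 CPM with Eth and 182, 216 and 223 CPM with Dex. All Dex libraries were again below all Eth libraries, but each was above every siNS Dex library. The log2 fold change was -0.79 (SE 0.0807, edgeR adjusted p = 1.29e-07), leaving 57.9% of the Eth level, which a fold change limit of 2 would not call. In siPRMT5 cells JUN held 370, 354 and 315 CPM with Eth and 129, 116 and 139 CPM with Dex, all 3 of the latter below every siNS Dex library. The log2 fold change was -1.44 (SE 0.0829, edgeR adjusted p = 5.5e-13), leaving 37.0%. JUN was again the single member called of 7, where the rule called 1.67% of all genes in siHP1γ cells (1.01% higher, 0.66% lower) and 5.44% in siPRMT5 cells (2.69% higher, 2.75% lower). Each of the 3 Dex responses of JUN kept its call in every alternative run at that fold change limit.

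FOSL1 was lower with Dex in every background but stayed below the fold change limit. In siNS cells it held 564, 504 and 517 CPM with Eth and 395, 299 and 390 CPM with Dex. The groups did not overlap, and Dex replicate 2 was the lowest of its group. The level with Dex was 68.4% of that with Eth, a fold change of 1.46 and a log2 fold change of -0.55 (SE 0.0916, edgeR adjusted p = 0.000131). Without siNS Dex replicate 1 or replicate 3 the fold change exceeded 1.5 and FOSL1 was called. The level with Dex was 71.1% of Eth in siHP1γ cells (adjusted p = 0.000761) and 78.4% in siPRMT5 cells (adjusted p = 0.00866), both by edgeR.

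A rule without the fold change limit, added after seeing the data, called FOSL1 and JUN lower in siNS cells and the same 2 genes in siHP1γ cells, where it called 5.28% (2.94% higher, 2.35% lower) and 3.29% (1.52% higher, 1.77% lower) of all genes. In siPRMT5 cells it called 5 of the 7 lower, FOSL1, FOSL2, JUN, JUNB and JUND, where it called 10.3% of all genes, 4.87% higher and 5.39% lower. In these cells FOSL2 with Dex was at 76.1% of Eth, JUNB at 72.2% and JUND at 70.1%. The median log2 fold change of the 7 members on Dex was -0.11 in siNS, -0.25 in siHP1γ and -0.39 in siPRMT5 cells, against 0.0036, -0.0017 and -0.00093 over all genes tested. JUNB and JUND in siNS cells gave log2 fold changes of 0.0029 and -0.11 on Dex, the first of which turned negative under other scalings and DESeq2, and their libraries overlapped.

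FOS was low, with 9.94, 12.2 and 10.4 CPM in siNS Eth and 8.83, 7.30 and 9.52 CPM in siNS Dex. These groups did not overlap but did not pass the test (log2 fold change -0.34, edgeR adjusted p = 0.152). FOSB was lower still, at 3.09, 4.59 and 4.56 CPM with Eth and 5.56, 3.92 and 3.99 CPM with Dex, with overlap between the groups. Neither FOS nor FOSB passed the test on Dex in any background.

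PRMT5 depletion changed 6 of the 7 AP-1 mRNAs in Dex-treated cells and 4 of the 7 in Eth-treated cells. These calls, at an adjusted p under 0.05, compare with 42.4% of all genes called with Dex (20.6% higher, 21.9% lower) and 42.1% with Eth (20.6% higher, 21.6% lower). The count with Eth is near the share in all genes, and that with Dex is above it. In Dex-treated cells FOSB and FOSL2 rose and FOSL1, JUN, JUNB and JUND fell, and in Eth-treated cells FOSB and FOSL2 rose and FOSL1 and JUND fell. The median log2 fold change of the 7 was -0.29 with Dex and -0.18 with Eth, against 0.0021 and 0.00048 over all genes. Both comparisons with siNS use the same siNS libraries as the HP1γ comparisons, and siNS Eth and siNS Dex also enter the Dex response of siNS cells.

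FOSL2 had the lowest adjusted p of the members on PRMT5 depletion with Eth. It held 109, 112 and 115 CPM in siNS Eth and 200.4, 205 and 214 CPM in siPRMT5 Eth. All siPRMT5 Eth libraries were above every other library of the series. The log2 fold change was 0.88 (SE 0.0626, edgeR adjusted p = 2.17e-11), or 184% of siNS. With Dex, FOSL2 held 126, 118 and 122 CPM in siNS and 149.9, 158 and 163 CPM in siPRMT5, again without overlap, at 129% of siNS (log2 fold change 0.37, SE 0.0622, edgeR adjusted p = 3.18e-05).

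FOSL1, in contrast, held 311, 256 and 311 CPM in siPRMT5 Eth, all below the lowest siNS Eth library at 504 CPM. The log2 fold change was -0.85 (SE 0.0924, edgeR adjusted p = 4.16e-08), leaving 55.3%. With Dex it held 225, 237 and 226 CPM in siPRMT5, below all siNS Dex libraries, and 63.4% of the siNS level remained (log2 fold change -0.66, SE 0.0927, edgeR adjusted p = 2.65e-06). The FOS family genes FOSL1 and FOSL2 therefore moved in opposite directions on PRMT5 depletion, with and without Dex.

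JUND held 52.4, 59.4 and 53.2 CPM in siNS Eth and 42.1, 41.6 and 38.5 CPM in siPRMT5 Eth. With Dex it held 52.7, 44.7 and 55.5 CPM in siNS and 31.3, 26.1 and 28.3 CPM in siPRMT5. Neither pair of groups overlapped. JUND fell to 74.0% of siNS with Eth (log2 fold change -0.44, SE 0.0996, edgeR adjusted p = 0.000904) and to 56.0% with Dex (-0.84, SE 0.102, adjusted p = 2.56e-07). JUNB held 27.3, 26.7 and 29.7 CPM in siNS Dex and 19.2, 15.5 and 18.7 CPM in siPRMT5 Dex, and it fell to 63.8% (log2 fold change -0.66, SE 0.113, edgeR adjusted p = 4.11e-05). With Eth the JUNB libraries overlapped, and the log2 fold change of -0.18 did not pass (adjusted p = 0.207).

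JUN with Dex was at 81.9% of siNS after siPRMT5 (log2 fold change -0.29, SE 0.0829, edgeR adjusted p = 0.0062). That call was lost without siPRMT5 Dex replicate 2 (adjusted p = 0.0601). With Eth, JUN did not pass (log2 fold change -0.15, edgeR adjusted p = 0.134). FOSB, with a low count behind it, held 7.94, 7.98 and 7.40 CPM in siPRMT5 Eth, all above the siNS Eth libraries, and rose to 191% of siNS (log2 fold change 0.92, SE 0.185, edgeR adjusted p = 0.00024). With Dex it rose to 156% (0.63, SE 0.178, adjusted p = 0.00587). FOS in siPRMT5 Eth held 9.34, 9.16 and 7.90 CPM, below all siNS Eth libraries, but it did not pass (log2 fold change -0.31, edgeR adjusted p = 0.0903).

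HP1γ depletion changed 3 of the 7 AP-1 mRNAs with Dex, where 24% of all genes were called (11.7% higher, 12.3% lower). With Eth it changed 2 of the 7, where 31.8% of all genes were called (16.5% higher, 15.2% lower), and this count is near the share in all genes. With Dex, JUN and FOSB rose and JUNB fell, and with Eth, FOSB and FOSL2 rose. The median log2 fold change of the 7 was 0.092 with Dex and 0.12 with Eth, against 0.0049 and 0.013 over all genes. With library size alone as scaling, the share of higher among called genes went from 48.7% to 69.2% with Dex and from 52.1% to 63.8% with Eth, and the called members were the same.

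In siHP1γ Dex, JUN at 182, 216 and 223 CPM lay above the siNS Dex libraries without overlap, at 133% of siNS (log2 fold change 0.41, SE 0.0817, edgeR adjusted p = 0.000614). With Eth the JUN libraries overlapped and the log2 fold change of -0.10 did not pass (adjusted p = 0.346). FOSB held 6.89, 7.95 and 7.93 CPM in siHP1γ Eth, above every siNS Eth library, and rose to 186% (log2 fold change 0.89, SE 0.182, edgeR adjusted p = 0.000501). With Dex FOSB held 7.64, 7.33 and 5.17 CPM in siHP1γ against 5.56, 3.92 and 3.99 CPM in siNS, and the groups overlapped. Its rise there (log2 fold change 0.57, SE 0.177, edgeR adjusted p = 0.0192) was lost without siNS Dex replicate 2 or 3 or siHP1γ Dex replicate 1 or 2.

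JUNB held 18.03, 22.2 and 23.5 CPM in siHP1γ Dex, below all siNS Dex libraries, and fell to 76.2% (log2 fold change -0.40, SE 0.110, edgeR adjusted p = 0.0093). That call was lost without siNS Dex replicate 3 (adjusted p = 0.0547) or siHP1γ Dex replicate 1 (adjusted p = 0.0739). With Eth the JUNB libraries did not overlap either, at 24.4, 23.6 and 21.3 CPM in siHP1γ, but the log2 fold change of -0.27 did not pass (edgeR adjusted p = 0.0642). It did pass when the compared groups were fitted alone (adjusted p = 0.0229) and in 4 of 18 fits without a library. FOSL2 held 136, 134 and 142 CPM in siHP1γ Eth and rose to 123% of siNS (log2 fold change 0.29, SE 0.0628, edgeR adjusted p = 0.000762). With Dex its siHP1γ libraries, at 112, 119 and 115 CPM, overlapped those of siNS and it did not pass (adjusted p = 0.411).

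Set directly against each other, the 2 depletions differed at 4 of the 7 AP-1 mRNAs with Dex, where 49.9% of all genes were called (24.4% higher, 25.5% lower), and at 4 of the 7 with Eth, where 48.4% were (23.4% higher, 25% lower). Both counts are near the share in all genes. With both treatments FOSL2 was higher and FOSL1 and JUND were lower in siPRMT5 than in siHP1γ. The log2 differences with Dex were 0.44 for FOSL2, -0.75 for FOSL1 and -0.84 for JUND. With Eth they were 0.59 for FOSL2, -0.89 for FOSL1 and -0.55 for JUND. JUN was lower in siPRMT5 with Dex (log2 difference -0.69, SE 0.0824, edgeR adjusted p = 1.23e-07) and not with Eth (-0.05, adjusted p = 0.652). FOS was lower in siPRMT5 with Eth, at 73.9% of siHP1γ (log2 difference -0.44, SE 0.140, edgeR adjusted p = 0.0125). That FOS call was lost without siHP1γ Eth replicate 1 or siPRMT5 Eth replicate 3.

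**Figure D1:**
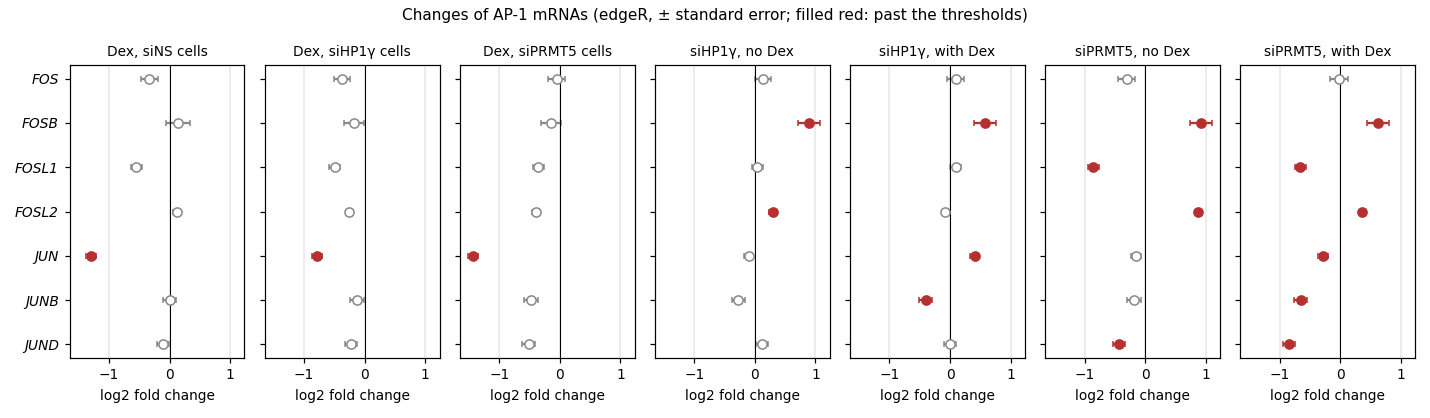
Log2 fold changes (x axis) of the 7 AP-1 genes (y axis) on Dex in each siRNA background and on each depletion with Eth or Dex, with bars of 1 SE and filled points for calls. JUN lies furthest left in each Dex panel, and FOSL1 and FOSL2 lie on opposite sides of 0 on PRMT5 depletion.

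Whether a depletion altered the Dex response itself was tested by the difference of the responses. For HP1γ the test called 0.399% of all genes (0.118% higher, 0.281% lower) and 1 of the 7 members, JUN, whose log2 fold change on Dex was 0.51 higher in siHP1γ than in siNS cells (SE 0.114, edgeR adjusted p = 0.0433), that is, a smaller decrease. The JUN call depended on single libraries and was lost in 10 of 18 fits that left out a library. These fits left out any of the 12 siNS and siHP1γ libraries other than siNS Eth replicate 2 and siHP1γ Dex replicate 1. Over all 18 fits the JUN difference ranged from 0.46 to 0.60. FOSL2 differed by -0.37 (SE 0.0887, edgeR adjusted p = 0.0595), and did not pass. In siNS cells all FOSL2 libraries with Dex lay above those with Eth, and in siHP1γ cells all lay below.

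For PRMT5 the test called 3.8% of all genes (1.58% higher, 2.23% lower) and 1 of the 7 members, FOSL2. Its log2 fold change was 0.12 in siNS cells (edgeR adjusted p = 0.269) and -0.39 in siPRMT5 cells (adjusted p = 2.88e-05), a difference of -0.51 (SE 0.0880, adjusted p = 0.0012). This difference kept its call in every alternative run and ranged from -0.53 to -0.47 over the fits without a library. The responses of JUNB and JUND differed by -0.48 and -0.41, without passing (edgeR adjusted p = 0.0922 and 0.11). The JUN responses differed by -0.14 (adjusted p = 0.558).

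Of 13 other bZIP proteins that can pair with AP-1 members or compete with them, 11 were tested. On PRMT5 depletion 8 of the 11 fell and 2 rose with Eth, and 7 fell and 1 rose with Dex, with medians of -0.67 and -0.49 on the log2 scale. Of all genes, 42.1% were called with Eth (20.6% higher, 21.6% lower) and 42.4% with Dex (20.6% higher, 21.9% lower). JDP2, a repressor that dimerizes with JUN proteins, stood at 10.5 ± 0.315 CPM in siNS Eth and 3.17 ± 0.624 in siPRMT5 Eth (log2 fold change -1.71, SE 0.161, edgeR adjusted p = 3.92e-09), and it fell by 1.67 on the log2 scale with Dex. MAFF, a small MAF protein without an activation domain, fell by 0.86 and 0.97. BATF2 fell by 0.81 with Eth and ATF7 by 0.88 with Dex. On HP1γ depletion none fell: with Dex MAFG, MAFK and MAFF rose (0.48, 0.43 and 0.37), and with Eth JDP2 and MAFG rose (0.76 and 0.32). These were 3 and 2 of the 11, where 24% and 31.8% of all genes were called. The count with Dex is thus near the share in all genes, and that with Eth is below it. With library size alone as scaling, 7 and 5 of the 11 were called. On Dex in siNS cells JDP2 was the single gene of the list called, at 20.7 ± 0.502 CPM (log2 fold change 0.99, SE 0.117, edgeR adjusted p = 7.33e-07). It was also called higher on Dex in siPRMT5 cells (1.03). The Dex rule called 2.71% of all genes in siNS cells and 5.44% in siPRMT5 cells.

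Of 16 kinases and factors that act upstream of AP-1, 15 were tested. On Dex MAP2K1, which encodes a kinase of the growth factor pathway, rose in siNS cells (log2 fold change 0.66, SE 0.0681, edgeR adjusted p = 7.84e-08), and it was the single gene of the list called in each background. Among all genes 2.71%, 1.67% and 5.44% were called on Dex in siNS, siHP1γ and siPRMT5 cells. HP1γ depletion lowered 4 and raised 3 with Eth, and lowered 4 and raised 1 with Dex, where 31.8% and 24% of all genes were called. The 7 called with Eth became 4 without siNS Eth replicate 3 or siHP1γ Eth replicate 3. The p38 kinase gene MAPK14 fell by 0.71 with Eth and 0.68 with Dex, the JNK gene MAPK8 by 0.45 with Eth and the JNK gene MAPK9 by 0.29 with Dex.
PRMT5 depletion lowered 2 and raised 6 of the 15 upstream genes with Eth, and lowered 4 and raised 9 with Dex. It changed 42.1% of all genes with Eth and 42.4% with Dex. The 8 called with Eth became 5 without siNS Eth replicate 2 or siPRMT5 Eth replicate 3. MAPK3, a MAP kinase gene, went from 72.0 ± 8.57 to 30.7 ± 2.06 CPM with Eth (log2 fold change -1.23) and fell by 1.66 with Dex. MAP3K1 and MAP2K4, kinases upstream of JNK, rose with Eth (0.59 and 0.44), and with Dex ELK4 rose (0.58) and SRF fell (-0.53).

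Of 21 genes known as AP-1 targets, 17 were tested. On Dex 7 fell and none rose in siNS cells, 6 fell and none rose in siHP1γ cells, and 7 fell and 1 rose in siPRMT5 cells, with median log2 fold changes of -0.63, -0.57 and -0.55. The Dex rule called 2.71%, 1.67% and 5.44% of all genes in these backgrounds. IL11, a cytokine of the IL-6 family, went from 30.5 ± 1.82 to 6.88 ± 0.852 CPM in siNS cells (log2 fold change -2.14, SE 0.116, edgeR adjusted p = 2.3e-13) and gave -1.76 in siHP1γ and -2.92 in siPRMT5 cells. In siPRMT5 cells IL11 was already at 9.48 ± 0.893 CPM with Eth, and its level with Dex, 1.23 ± 0.189 CPM, rested on 39 counts over 3 libraries. HBEGF, an EGF receptor ligand, gave -1.32 in siNS, -0.89 in siHP1γ and -1.47 in siPRMT5 cells, all called. MMP1, the interstitial collagenase, fell in siNS cells (-1.19) and in siHP1γ cells (-1.15), and gave -0.51 in siPRMT5 cells, which was not called (adjusted p = 0.0138). In siPRMT5 Eth, MMP1 was already at 7.11 ± 0.364 CPM against 23.0 ± 1.13 in siNS Eth.

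On HP1γ depletion most of the called targets were higher, with 8 raised and 1 lowered of the 17 with Dex and 9 raised and 3 lowered with Eth (medians 0.39 and 0.32). Of all genes, 24% were called with Dex (11.7% higher, 12.3% lower) and 31.8% with Eth (16.5% higher, 15.2% lower). The chemokine gene CXCL8 rose by 1.57 on the log2 scale with Dex and 0.84 with Eth, VEGFA by 0.64 with each, and HBEGF by 0.72 with Dex, whereas F3, tissue factor, fell by 0.90 with Eth. PRMT5 depletion raised 8 and lowered 4 with Dex and raised 6 and lowered 5 with Eth (medians 0.18 and -0.0066). Here 42.4% of all genes were called with Dex and 42.1% with Eth. IL11 fell by 2.46 with Dex, to a level that rested on 39 counts over 3 libraries, and by 1.68 with Eth. MMP1 fell by 1.69 with Eth and, with Dex, from 10.04 ± 0.807 to 4.99 ± 0.685 CPM. F3 rose by 0.82 with Dex and fell by 0.96 with Eth. The part of any AP-1 member in these levels was not tested.

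**Figure D2:**
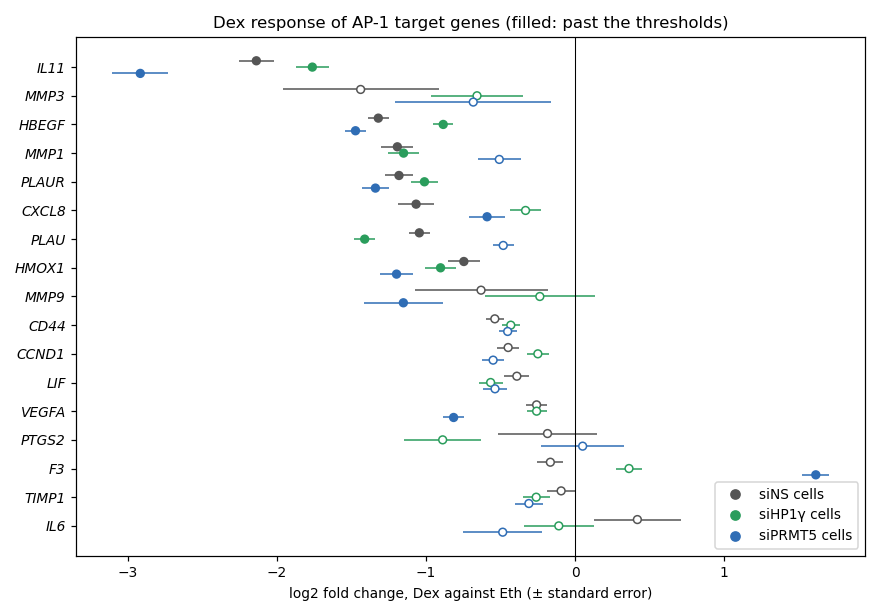
Log2 fold changes on Dex (x axis) of the 17 tested AP-1 target genes (y axis) in siNS, siHP1γ and siPRMT5 cells, with bars of 1 SE and filled points for calls. IL11 shows the lowest value in each background, and F3 is the single gene called higher, in siPRMT5 cells.

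Among 13 other immediate early genes, which share upstream signals with FOS and JUN, 11 were tested. On Dex 1 fell and none rose in siNS cells, namely IER2 (log2 fold change -0.78, SE 0.0907, edgeR adjusted p = 5.82e-07; 2 genes were called by DESeq2, with other scalings and in 14 of 18 fits without a library), and in siHP1γ and siPRMT5 cells 2 fell and 1 rose. The share of all genes called on Dex was 2.71% in siNS, 1.67% in siHP1γ and 5.44% in siPRMT5 cells. PRMT5 depletion lowered 5 and raised 3 with Eth, and lowered 5 and raised 1 with Dex, where 42.1% and 42.4% of all genes were called. The matricellular genes CCN1 and CCN2 fell by 1.14 and 1.24 with Eth and by 0.95 and 0.82 with Dex, and the zinc finger gene EGR1 fell by 0.88 and 0.76. HP1γ depletion lowered 4 with each treatment and raised 3 with Eth and 2 with Dex, where 31.8% and 24% of all genes were called. IER2 fell by 0.59 and 0.51 and KLF6 by 0.52 and 0.43 with Eth and Dex, CCN1 by 0.43 with Dex, and EGR1 rose with Eth (0.52).

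As a reference for GR activity, 6 of 7 glucocorticoid genes rose on Dex in siNS cells and 5 of 7 in the siHP1γ and siPRMT5 cells. The share of all genes called was 2.71%, 1.67% and 5.44%. The 7 include NR3C1, which encodes GR itself and was not among those that rose in siNS cells. NR3C1 stood at 148 ± 10.0 CPM in siNS Eth and 127 ± 4.61 in siNS Dex (SD, n = 3). It stood at 131 ± 16.9 CPM in siHP1γ Dex and 158 ± 16.0 in siPRMT5 Dex. TSC22D3, the glucocorticoid-induced leucine zipper, gave a log2 fold change of 3.64, KLF9 2.82 and PER1 2.54 in siNS cells. In Dex-treated cells 5 of the 7 were lower in siHP1γ than in siNS, led by FKBP5 (-1.01), TSC22D3 (-0.82) and KLF9 (-0.76), and 6 of the 7 were higher in siPRMT5, led by TSC22D3 (0.78), FKBP5 (0.51) and KLF9 (0.35). These values share the siNS Dex libraries, and 24% and 42.4% of all genes were called on siHP1γ and siPRMT5 with Dex. Without Dex the list went both ways: 2 were higher and 2 lower in siHP1γ, and 3 were higher and 2 lower in siPRMT5, where TSC22D3 was at 1.18 and DUSP1 at -1.04 on the log2 scale. Of all genes, 31.8% were called on siHP1γ and 42.1% on siPRMT5 without Dex.

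Over the 18 libraries the members did not follow a single profile. The highest Pearson r of log2 CPM between members was 0.88, for FOSL1 and JUND, and the lowest was -0.58, for FOSL1 and FOSL2. These r values describe libraries that share the 6 conditions. Among 11410 genes compared, those most like JUN were SEMA4B (r = 0.98) and HBEGF (r = 0.96), and those most like FOSL1 were CMIP (r = 0.97) and SERTAD2 (r = 0.96). For FOSL2 they were BMF (r = 0.97) and ESPL1 (r = 0.96), for JUND ITGA3 (r = 0.97) and CCDC9B (r = 0.96), and for JUNB RFC2 (r = 0.95) and CARHSP1 (r = 0.92). FOSB was most like KRT80 (r = 0.91) and PRICKLE2 (r = 0.89). FOS had the lowest values of likeness, with MAPKBP1 (r = 0.80) and TFPI2 (r = 0.79).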

How the data were processed

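RNA of 18 MDA-MB-231 libraries was sequenced, and the authors deposited a file of raw counts per gene symbol for each library. The submitters' processing notes name Bowtie2 2.4.2, HTSeq 0.9.1, DESeq2 2.11.40.7 and hg38. The gene annotation and the strand setting are not given in the sources used here. A deposited table of the authors' own comparisons, with fold changes and p-values, was not used.

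Samples were grouped by their labels. Genes were kept by edgeR's filterByExpr (15298 genes), scaled by TMM and fitted with the edgeR 4.0.16 quasi-likelihood model (R 4.3.3) over all 18 libraries, estimating a mean for each condition (residual degrees of freedom, 12). P-values were adjusted by Benjamini-Hochberg over all genes tested. Dex responses were called at an adjusted p under 0.01 with a minimum fold change of 1.5, the limit in the study's text (a figure legend gives 2, tried as an alternative), and other comparisons at an adjusted p under 0.05. A gene past the test is said to rise or fall. Standard errors are the log2 fold change divided by the root of F. The procedure was tested on simulated data. CPM used the TMM-scaled totals, and log2 CPM a prior count of 2. The study describes its replicates as biological, and p-values cover the spread between these libraries of 1 cell line.

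From each other list the 3 genes with the largest change among those called with a mean of at least 5 CPM were named, per comparison on Dex in siNS cells and on each depletion. A gene that this rule names is not reported here. The members, lists and rule were chosen with earlier results of these data known. Alternatives were DESeq2 1.42.0, other scalings and filters, a replicate block, fits of the compared groups alone and leaving out each library. Between same-numbered libraries the correlation of deviations had a median of 0.0066 and exceeded 0.1 in 6 of 45 pairs (range -0.186 to 0.315). Differently numbered pairs were not set beside these, so whether libraries of the same number share a deviation was not tested.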

Additional observations from a re-analysis of the deposited data

Results flagged for a closer look

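Differences between Dex responses in 2 siRNA backgrounds were marked where the difference itself passed the test (edgeR, adjusted p under 0.05) or where all libraries moved one way in one background and the opposite way in the other.

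Between siHP1γ and siNS cells, the log2 difference of the Dex response was 0.51 for JUN (edgeR adjusted p = 0.0433). FOSL2 was marked by its direction: all 3 Dex libraries were above Eth in siNS cells and all 3 below in siHP1γ cells, with a difference of -0.37 (adjusted p = 0.0595) that did not pass in edgeR but did with DESeq2 (adjusted p = 0.00312). Among the AP-1 target genes, CXCL8 differed by 0.73 (edgeR adjusted p = 0.0361) and HBEGF by 0.44 (adjusted p = 0.0398), named because they were the 2 called. That count was 0 to 4 without a library and 4 by DESeq2. The share of all genes called by edgeR was 0.399%. The CXCL8 call was lost without any of 8 libraries, and that of HBEGF without any of 9.

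Between siPRMT5 and siNS cells, FOSL2 differed by -0.51 (edgeR adjusted p = 0.0012). Among the target genes, which were named for being the 4 called, F3 differed by 1.78 (adjusted p = 1.42e-09), MMP1 by 0.68 (adjusted p = 0.0305), PLAU by 0.56 (adjusted p = 0.00184) and VEGFA by -0.56 (adjusted p = 0.00148). The MMP1 call was lost without any of 6 libraries and with no filter on low counts (adjusted p = 0.0958). The share of all genes called for this difference was 3.8%.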

How the results depend on the processing

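Counts of AP-1 members called for Dex depended on the fold change limit: without it they were 2 in siNS, 2 in siHP1γ and 5 in siPRMT5 cells in place of 1 each, and a limit of 2 left 0 in siHP1γ cells. Leaving out a library gave 1 to 2 members for Dex in siNS cells, 1 to 3 for siHP1γ against siNS with Dex, and 0 to 1 for the HP1γ difference of the Dex response. That last comparison had 2 members by DESeq2 and 2 with the replicate block, FOSL2 being added (adjusted p = 0.0498 with the block); the block changed no other member's call, and called 4 in place of 2 of the other bZIP genes on HP1γ depletion with Eth. Over all genes it called 61, but 314 by DESeq2, 374 without a filter, 94 with the block and 20 to 186 without a library, and the PRMT5 difference called 582 (319 to 897 without a library). The bZIP genes called for Dex in siPRMT5 cells were 1 to 2 without a library. With library size alone the median log2 fold change of all genes was furthest from 0 for siHP1γ against siNS with Dex. It was 0.086 there, against 0.0049 in the main fit. The cause of these changes was not tested.

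Values that reversed were near 0 and none was called. JUNB on Dex in siNS cells was -0.0020 by DESeq2, -0.0028 with its size factors, -0.0069 with library size alone, -0.0031 with at least 10 counts per library and -0.047 to 0.065 without a library. With library size alone FOSL2 was 0.0053 for siHP1γ against siNS with Dex, and FOSB was -0.013 with Dex and -0.0083 with Eth for siPRMT5 against siHP1γ. JUND without a filter was -0.0040 for siHP1γ with Dex. Without a library, FOSB on Dex in siNS cells ranged from -0.052 to 0.23. For siHP1γ with Dex, FOS ranged from -0.0099 to 0.18, FOSL1 from -0.034 to 0.16 and JUND from -0.10 to 0.10. FOS ranged from -0.13 to 0.065 for siPRMT5 with Dex and from -0.16 to 0.033 on Dex in siPRMT5 cells. FOSL1 ranged from -0.033 to 0.12 for siHP1γ with Eth. For the HP1γ difference, FOS ranged from -0.13 to 0.054 and FOSL1 from -0.054 to 0.13. For siPRMT5 against siHP1γ, FOSB ranged from -0.092 to 0.17 with Dex and from -0.030 to 0.071 with Eth, and JUN from -0.083 to 0.023 with Eth.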
